A study of Mus musculus with 4 samples.

Results

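The Rab GTPases are described here as they were read in sorted macrophages of mouse bone marrow and spleen, with and without T cell acute lymphoblastic leukaemia (T-ALL). Members were all gene symbols made of Rab, a number and at most a letter and a digit, which leaves out the proteins that bind or regulate Rabs. The rule found 57 genes of the 17008 with a read in any library. The study sequenced RNA of sorted macrophages from C57BL/6J mice aged 6 to 8 weeks, in 4 libraries with 1 library per group. Normal mice gave a bone marrow and a spleen library at day 0. T-ALL mice had been given GFP-labelled leukaemia cells without irradiation, and gave a bone marrow and a spleen library at day 21. The series asks how macrophages in leukaemia differ from those of homeostasis. The markers of the sort, the number of mice behind a library, their sex and the way the leukaemia was first induced are not stated in the labels.

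Rab proteins are small GTPases that give each membrane of the cell its identity. Bound to GTP they sit on a membrane through lipid tails and recruit effectors, such as tethers, motors and kinases, which move, dock and fuse vesicles, and after GTP is cleaved a carrier named GDI takes them back to the cytosol. Exchange factors switch them on and GTPase-activating proteins switch them off. In macrophages they are known for carrying a swallowed particle from the early phagosome to the lysosome, and in granulocytes, mast cells and platelets for the release of stored granules.

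Levels are CPM (counts-per-million), a gene's uniquely mapped reads relative to the scaled library total, and where genes are compared with each other they are the deposited RPKM, which also divides by gene length. Genes are called higher or lower at a difference of 2-fold or more on the log2(CPM + 1) scale, given 10 CPM or more in the higher library of the pair, and a gene that reaches that minimum is called measured. Folds are ratios of CPM, and the values in parentheses after them are exact binomial 95% intervals, which cover counting error only. With 1 library per group there is no replicate check, no p-value is given, and a difference between libraries cannot be told apart from a difference between animals or sorts. The scaled totals ran from 8939756 to 9856658 reads, so 1 read was worth 0.101 to 0.112 CPM. Lists of 4 values follow the order normal bone marrow, T-ALL bone marrow, normal spleen and T-ALL spleen.

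The libraries differed in the markers of other cells. The 16 macrophage markers summed to 3881, 10724, 11978 and 6246 CPM, and all 16 had reads in each library. Without Lyz2 and Itgam, which granulocytes also express and which were left out after the data were seen, the other 14 summed to 583, 4356, 10814 and 5926 CPM, which puts T-ALL bone marrow below T-ALL spleen. The 10 markers of neutrophil precursors summed to 35326, 18098, 371 and 143 CPM. In both bone marrow libraries this stood above the sum of the 16 macrophage markers. The 7 markers of mature neutrophils summed to 15664, 14071, 332 and 120.2 CPM, and the 7 of basophils and mast cells to 3013, 1543, 197 and 52.1 CPM. T cell markers (12 genes) summed to 178, 740.5, 1281 and 3461 CPM, B cell markers (8 genes) to 389, 399, 2370 and 1126 CPM, and dendritic cell markers (9 genes) to 232, 313, 1203 and 402 CPM. No marker of these lists was at 0 in any library. In such bulk samples, fewer cells of a type and less RNA per cell cannot be told apart.

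The Rab genes took a larger share of reads in bone marrow than in spleen. They made up 0.402% of the reads (Wilson 95% interval 0.398 to 0.406) in normal bone marrow and 0.386% (0.382 to 0.390) in T-ALL bone marrow. In spleen they made up 0.329% (0.325 to 0.333) of the normal and 0.278% (0.274 to 0.281) of the T-ALL library. Not every role followed this order between the normal organs. The Rabs of secretory granules and lysosome-related organelles did, at 0.121% in bone marrow and 0.0187% in spleen, as did those grouped with no route. All other roles had the larger share in normal spleen, such as the Golgi role at 0.0832% and 0.0987%. Between the T-ALL organs every role had the larger share in bone marrow. Of the 57 members, 51 had reads in all 4 libraries, 41 reached 10 CPM in at least 1 library and 32 reached it in all 4.

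Per length, the most abundant Rab in every library was Rab7, the Rab of late endosomes and lysosomes, at 172, 179.7, 157 and 139 RPKM. This rank rests on its deposited length of 624 bases, the shortest of all members. Rab5c, a Rab of early endosomes, followed it in 3 libraries, at 146, 141 and 127 RPKM, and stood at 138 RPKM in normal bone marrow. There the second place was held by Rab44, at 148 RPKM. Rab1b, which works between the endoplasmic reticulum and the Golgi, was among the 5 highest in all 4 libraries, at 99.7, 93.9, 80.8 and 96.7 RPKM. The remaining places among the 5 highest went to Rab27a in normal bone marrow (70.3 RPKM), Rab44 and Rab8a in T-ALL bone marrow (80.2 and 72.8 RPKM), Rab8a and Rab43 in normal spleen (96.6 and 78.9 RPKM), and Rab10 and Rab8a in T-ALL spleen (74.1 and 68.5 RPKM). Rab8a and Rab10 deliver vesicles to the plasma membrane.

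Most of the well expressed Rabs were at much the same level in the 4 libraries. Of the 32 that reached 10 CPM everywhere, 24 had a highest level less than 2-fold above the lowest, and the median of that ratio was 1.505. Requiring the minimum everywhere favours steady genes by construction. Rabs that met it in only some libraries are left out, and their ratios ran from 1.97 (Rab2b) to 127 (Rab44). How many of all genes stayed within 2-fold is not given here, so the count is not read as particular to the Rabs. The narrowest spread was that of Rab11b, a Rab of recycling endosomes, at 190.4, 190.1, 186 and 176 CPM, a ratio of 1.08. Rab35, which also serves recycling, was at 92.0, 98.1, 89.6 and 88.3 CPM, and Rab18, of lipid droplets and the endoplasmic reticulum, at 76.3, 80.9, 71.7 and 82.8 CPM. Rab5c was at 217, 234, 225 and 200.2 CPM and Rab1 at 139, 152, 128 and 142 CPM. These Rabs, named because their spreads were the narrowest, differed by at most 1.19-fold between any of the 4 libraries. Other Rabs of the endosomal and Golgi routes varied more, such as Rab5b at 1.88-fold, Rab6a at 1.60-fold and Rab11a at 1.49-fold. Rab9, which returns cargo from late endosomes, was at 24.0, 24.0, 21.8 and 17.9 CPM. It lies on the X chromosome, as do Rab33a and Rab39b. The X-inactivation transcript Xist was at 861, 0.644, 849 and 416 CPM. Xist was thus near equal in the normal libraries but differed in every comparison with a T-ALL library. The sex of the cells behind each library is not stated. A part of sex in the level of any Rab, X-linked or not, was not tested. In those comparisons it cannot be told apart from leukaemia or organ.

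**Figure D1:**
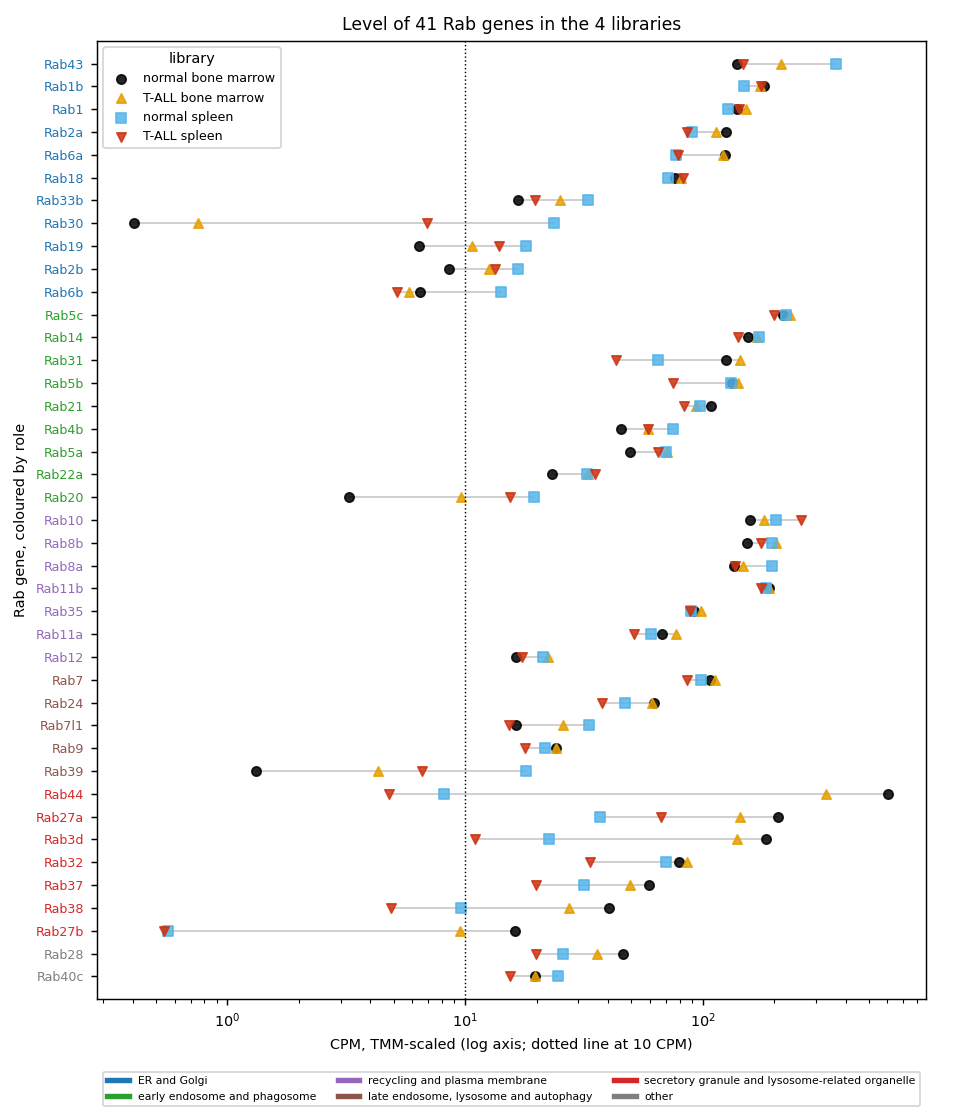
CPM of the 41 Rab genes that reached 10 CPM in at least 1 library, on a log axis, with 1 point per library and a grey line from the lowest to the highest. Gene names are coloured by role, and the dotted line marks 10 CPM. Rab11b spans 1.08-fold, whereas Rab44 spans 127-fold from T-ALL spleen to normal bone marrow.

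The widest differences were between the organs, and they were largest in the Rabs of secretory granules and of lysosome-related organelles, the stores that immune cells, pigment cells and platelets release on demand. The 11 members of this role summed to 1199 and 795 CPM in normal and T-ALL bone marrow against 188 and 148 CPM in the spleen libraries. They made up 30.0% of all Rab reads (Wilson 95% interval 29.5 to 30.5) in normal bone marrow and 20.4% (20.01 to 20.8) in T-ALL bone marrow. In normal spleen they made up 5.68% (5.42 to 5.95) and in T-ALL spleen 5.38% (5.11 to 5.67). No other role differed so much, and the 10 recycling Rabs, for example, summed to 818, 926, 955 and 907 CPM.

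Between the normal organs, 5 of the 41 measured Rab genes were lower in spleen and 6 were higher. Over all 10072 genes measured in this pair 14.0% were lower and 16.1% higher, close to the shares of 12.2% and 14.6% among the Rabs. The median log2 fold of the 41 was -0.04, as it was over all genes. All 5 lower members were granule Rabs, out of 7 of that role that were measured, and the median log2 fold of the 7 was -2.45.

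Rab44, an unusually large Rab with a calcium-binding domain, known from mast cell granules and osteoclasts, had 5974, 3096, 73 and 44 reads, or 606, 332, 8.17 and 4.76 CPM. Both bone marrow libraries were far above both spleen libraries. It was 74.2-fold lower (58.9 to 94.8) in normal spleen than in normal bone marrow. In normal bone marrow it alone made up 15.2% of all Rab reads, against 0.247% in normal spleen.

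Rab3d, which sits on the secretory granules of exocrine and mast cells, was at 185, 139.9, 22.5 and 11.0 CPM. It was 8.22-fold lower (7.10 to 9.56) in normal spleen. Rab27a docks granules at the plasma membrane, and its loss causes the immune deficiency and pale hair of Griscelli syndrome. Its levels were 208, 144, 37.1 and 67.0 CPM, and it was 5.60-fold lower (4.98 to 6.30) in normal spleen. Rab27b, its close relative in platelets and mast cells, was at 16.2, 9.55, 0.559 and 0.541 CPM, with 5 reads in each spleen library. The fall of Rab27b in normal spleen was 29.0-fold (12.2 to 90.6).

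Rab38 and Rab32 bring cargo to melanosomes and to the dense granules of platelets, and they are related in sequence. Rab38 was at 40.4, 27.4, 9.62 and 4.87 CPM, 4.20-fold lower (3.32 to 5.36) in normal spleen. Rab32 was at 79.7, 85.7, 70.1 and 33.6 CPM, and in normal spleen it was 1.14-fold lower (1.02 to 1.26), which does not pass the size rule. Rab37, a Rab of mast cell and other secretory granules, was at 59.5, 49.7, 31.7 and 19.9 CPM, and its difference of 1.88-fold (1.63 to 2.17) in normal spleen missed the rule as well. The other 4 members of this role, Rab3a, Rab3b, Rab3c and Rab26, stayed under 10 CPM in every library.

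The summed granule Rabs moved with the summed markers of several cell types. The sums for neutrophil precursors and for basophils and mast cells had the same order over the 4 libraries, highest in normal bone marrow and lowest in T-ALL spleen. So did platelet and megakaryocyte markers, at 333, 226, 14.0 and 9.31 CPM. The mature neutrophil sum had this order too, but its genes did not all follow. In T-ALL against normal bone marrow 3 of these 7 were higher, at a median log2 fold of 0.97. The measured granule Rabs were at -0.53 there. Single granule Rabs did not all follow the order of their sum either. Rab27a was lowest in normal spleen, at 37.1 CPM, and Rab32 was highest in T-ALL bone marrow, at 85.7 CPM. The part of these markers in the Rab levels was not tested. All 10 neutrophil precursor markers and 6 of 7 basophil and mast cell markers were lower in normal spleen, among them Mpo, the granule peroxidase, at 9900 and 50.7 CPM and Prss34, a basophil protease, at 1412 and 13.1 CPM.

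**Figure D2:**
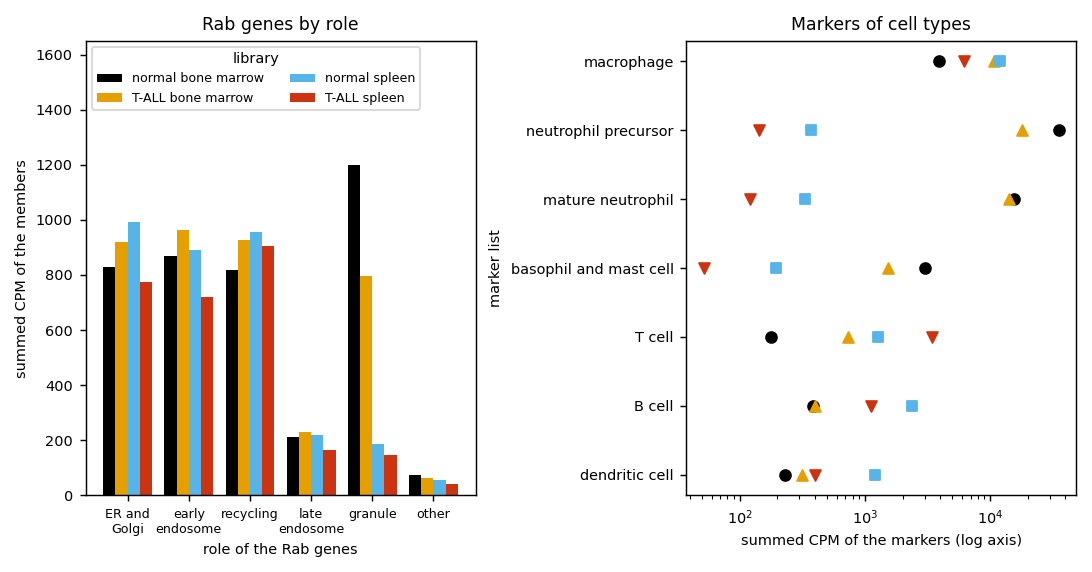
Left, summed CPM of the Rab genes by role, with 1 bar per library. Right, summed CPM of marker lists on a log axis, with 1 point per library in the same colours. The granule Rabs fall from 1199 CPM in normal bone marrow to 148 CPM in T-ALL spleen, and the neutrophil precursor markers from 35326 to 143 CPM.

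The 6 Rabs that were higher in normal spleen than in normal bone marrow belonged to the Golgi, phagosome and late endosome roles. Apart from Rab43, they reached 10 CPM only in the spleen library of this pair. Rab30, a Golgi Rab, had 4, 7, 212 and 64 reads, or 0.406, 0.751, 23.7 and 6.93 CPM. Both bone marrow libraries held next to none of it. It was 58.4-fold higher (22.5 to 216) in normal spleen than in normal bone marrow. Rab39, a Rab of phagosomes and late endosomes, had 13, 40, 161 and 61 reads and was at 1.32, 4.29, 18.0 and 6.60 CPM, 13.7-fold higher (7.76 to 26.2) in normal spleen. Rab20, which acts on the maturing phagosome, was at 3.25, 9.66, 19.5 and 15.5 CPM, 6.00-fold higher (4.09 to 9.04).

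Rab43 was the abundant member of this set. It works between the endoplasmic reticulum and the Golgi and on phagosomes, and is known for the presentation of swallowed antigen by dendritic cells. Its levels were 140.0, 214, 365 and 148 CPM, and it was 2.61-fold higher (2.45 to 2.78) in normal spleen. In GENCODE it shares 4164 exon bases on the same strand with another protein-coding gene, Gm45140, so its reads may be split with or added from that gene. Rab19 was at 6.39, 10.7, 18.0 and 14.0 CPM (2.82-fold higher, 2.09 to 3.83), and Rab6b, the less abundant relative of the Golgi Rab6a, at 6.49, 5.80, 14.2 and 5.20 CPM (2.19-fold, 1.61 to 3.0). Rab7l1, now called Rab29, a Rab of the Golgi and lysosomes and a partner of the kinase Lrrk2, was at 16.3, 25.97, 33.3 and 15.3 CPM and just under the rule, at a log2 fold of 0.99. In the same pair of libraries, 14 of 16 macrophage markers, 7 of 9 dendritic cell markers and 6 of 8 B cell markers were higher in spleen. Of 12 T cell markers, 11 were higher there and 0 lower. The part of these markers in these Rab levels was not tested.

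The bases before the starts of genes from both sets are shown so that they can be compared. Sequences were taken from a table of RefSeq promoters (GRCm38.p6), in which 47 of the 57 members matched, and are shown for a Rab that was high in bone marrow (Rab3d) and for Rab20 and Rab39, which were high in normal spleen. Each is the 250 bases before the annotated start, read 5′ to 3′ on the gene's own strand. Capitals mark the motifs searched on both strands, which were CCGCCC (the GC box of SP and KLF factors), CACGTG (an E-box), GGAAGT (a core of ETS factors such as PU.1) and TTNNGNAA (a motif of C/EBP factors). The build of the deposited counts is stated in no label or header, and these coordinates belong to the RefSeq sequences only.
Rab3d, chr9:21918184-21918433, minus strand: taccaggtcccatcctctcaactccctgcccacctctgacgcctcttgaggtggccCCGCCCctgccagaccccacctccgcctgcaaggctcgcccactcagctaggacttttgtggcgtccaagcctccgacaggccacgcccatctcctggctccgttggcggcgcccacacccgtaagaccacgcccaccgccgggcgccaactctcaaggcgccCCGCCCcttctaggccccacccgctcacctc
Rab20, chr8:11478641-11478890, minus strand: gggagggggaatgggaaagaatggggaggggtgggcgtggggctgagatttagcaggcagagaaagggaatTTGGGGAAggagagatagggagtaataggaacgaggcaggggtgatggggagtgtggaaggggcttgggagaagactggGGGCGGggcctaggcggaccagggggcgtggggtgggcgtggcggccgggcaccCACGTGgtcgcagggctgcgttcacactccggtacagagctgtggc
Rab39, chr9:53706233-53706482, minus strand: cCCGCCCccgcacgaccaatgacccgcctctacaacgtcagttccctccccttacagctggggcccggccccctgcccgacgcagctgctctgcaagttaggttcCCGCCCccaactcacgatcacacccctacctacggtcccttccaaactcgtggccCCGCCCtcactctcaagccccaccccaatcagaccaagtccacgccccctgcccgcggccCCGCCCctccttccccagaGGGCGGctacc

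All 3 windows shown held the GC box, but not every gene of both sets did so in each window. The window of Rab19, which was higher in normal spleen, held none. Neither did 1 of the windows of Rab27a, which was lower in normal spleen. Of the 59 windows of Rab genes, 39 (66.1%) held it, against 42.6% of the 21263 windows of protein-coding genes. The E-box was in 5 Rab windows (8.47%, against 6.63%), the ETS core in 10 (16.9%, against 20.4%) and the C/EBP motif in 15 (25.4%, against 34.0%). These are matches of letters, with no test, and some genes have several windows.

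In bone marrow, no Rab gene passed the size rule between the T-ALL and the normal library. Of 37 measured members, 0 were higher and 0 lower, where 8.01% of the 9716 measured genes were higher and 1.03% lower. The median log2 fold of the Rabs was 0.09, against -0.04 over all genes, and their folds ran from -0.87 to 0.67. In this same pair, 15 of 16 macrophage markers were higher, at a median of 2.98 on the log2 scale, and 7 of 10 neutrophil precursor markers were lower, at -1.80. Of 7 mature neutrophil markers 3 were higher, at a median of 0.97. All 10 measured T cell markers were higher, at a median of 2.10. Of 8 erythroid markers 5 were higher and 0 lower, at a median of 1.53. The part of these markers in the Rab levels was not tested.

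The granule Rabs were the lower end of that range. Rab44 was under the rule at 1.82-fold lower (1.75 to 1.91) in T-ALL bone marrow, Rab27b was 1.70-fold lower (1.30 to 2.23), and Rab38 and Rab27a stood 1.48-fold (1.26 to 1.73) and 1.44-fold (1.35 to 1.55) lower. Of the 7 measured granule Rabs, 6 had a log2 fold below 0 and Rab32 was at 0.10. At the upper end were Rab19, at 1.68-fold higher (1.21 to 2.34), Rab7l1, at 1.59-fold (1.30 to 1.95), and Rab43, at 1.53-fold (1.42 to 1.64). The largest early endosome difference was that of Rab5a, a Rab of early endosome fusion, which was 1.44-fold higher (1.28 to 1.62), and Rab12 led the recycling Rabs at 1.36-fold (1.1 to 1.68). Rab28, grouped with no route here, was 1.28-fold lower (1.11 to 1.48). Rab20 and Rab39 were also higher in the T-ALL library, at 32 and 90 reads and at 13 and 40 reads, but stayed below 10 CPM in both.

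In spleen, 6 of 38 measured Rab genes (15.8%) fell in the T-ALL library and 0 were higher. Over all 9774 genes measured there, 11.0% were lower and 10.3% higher. The median log2 fold was -0.30, against -0.08 over all genes, and 31 of the 38 were below 0. The 6 that fell were Rab30, Rab39, Rab6b, Rab43, Rab7l1 and Rab32.

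Of the 6, 3 belong to the Golgi role, and Rab30 fell furthest, from 212 to 64 reads, 3.42-fold (2.58 to 4.60). Rab43 fell from 3262 to 1364 reads, 2.47-fold (2.32 to 2.63), and Rab6b from 127 to 48 reads, 2.73-fold (1.95 to 3.89). These were also among the 6 Rabs higher in normal spleen than in normal bone marrow, a comparison that shares the normal spleen library. The late endosomal Rab39 and Rab7l1 fell 2.73-fold (2.02 to 3.72) and 2.18-fold (1.78 to 2.69). Rab32 fell from 70.1 to 33.6 CPM, 2.09-fold (1.82 to 2.40). With median-of-ratios scaling Rab32 was under the rule, which left 5. With a pseudocount of 5 in place of 1, only Rab30 and Rab43 passed, and Rab39, Rab6b, Rab7l1 and Rab32 did not.

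Several Rabs lay near the rule in spleen. Rab3d was 2.04-fold lower (1.60 to 2.61) by the ratio of CPM, but at a log2 fold of -0.96 on the scale of the rule. Rab5b, an early endosome Rab, went from 132 to 74.8 CPM, 1.77-fold lower (1.61 to 1.94), while its relatives Rab5a and Rab5c were 1.07-fold (0.959 to 1.204) and 1.12-fold (1.05 to 1.196) lower, the former with an interval across no difference. Among the recycling Rabs the largest difference was that of Rab8a, 1.43-fold lower (1.33 to 1.54), and Rab40c, of the Rabs grouped with no route, was 1.6-fold lower (1.29 to 1.98). Rab27a went the other way, from 37.1 to 67.0 CPM, 1.80-fold higher (1.58 to 2.07), and Rab10 was 1.28-fold higher (1.2 to 1.36).

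Markers of several cell types moved in the spleen pair too. Of 9 dendritic cell markers 7 were lower (median log2 fold -2.20), and of 16 macrophage markers 9 were lower, at a median of -1.01. Of 12 T cell markers 8 were higher and 1 lower, and all 12 cell cycle genes were higher, at a median of 2.03. Their part in the Rab levels was not tested.

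**Figure D3:**
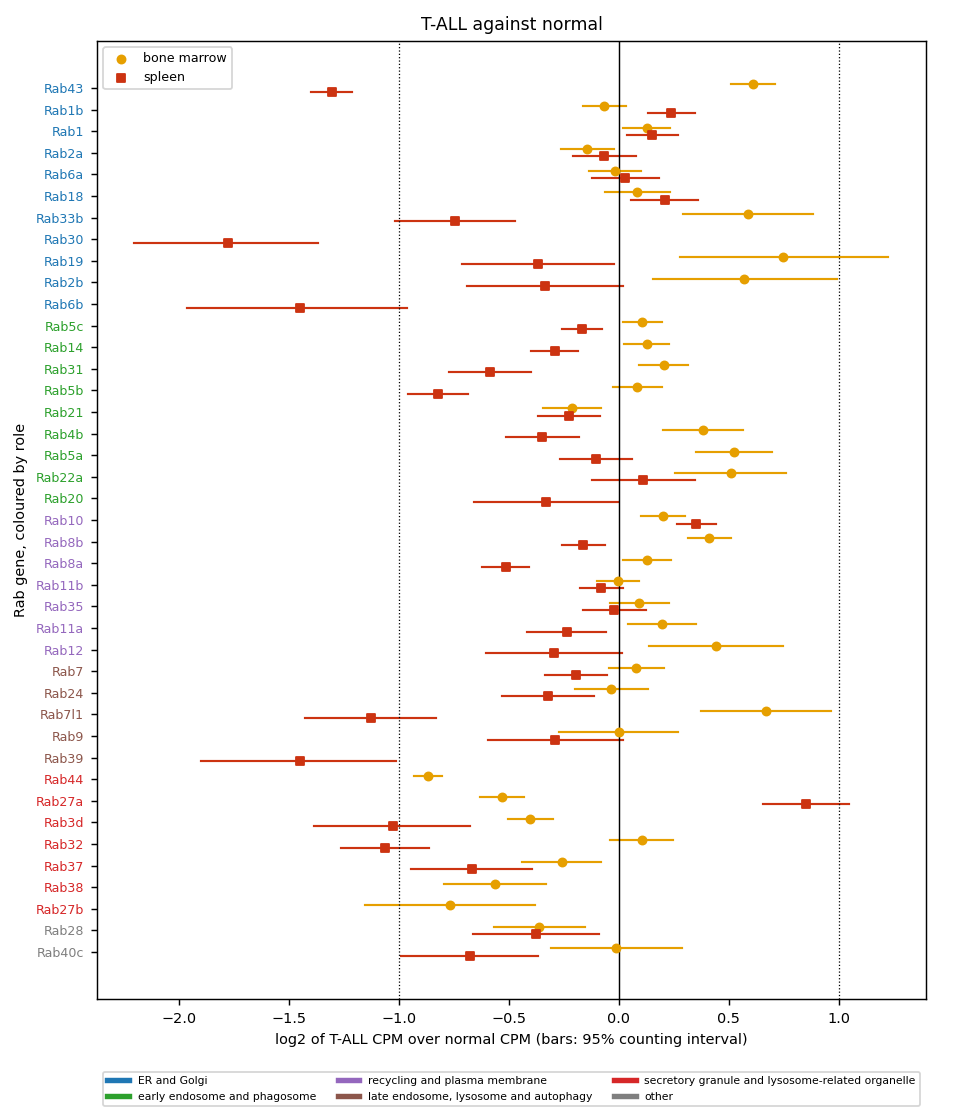
Log2 ratio of T-ALL to normal CPM for each measured Rab gene, in bone marrow (circles) and spleen (squares), with 95% counting intervals as bars. Dotted lines mark 2-fold. No bone marrow point lies beyond them, and Rab30, at 3.42-fold lower, lies furthest out in spleen.

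No library enters both T-ALL comparisons, so the folds of the 2 organs can be set side by side. Of 34 members measured in both, 18 were above 0 in bone marrow and below 0 in spleen, 9 were below 0 in both, 4 above 0 in both, and 3 below 0 in bone marrow and above 0 in spleen. The same shares over all genes are not given here, so these counts are not read as particular to the Rabs. Rab43 was 1.53-fold higher in bone marrow and 2.47-fold lower in spleen, and Rab7l1 1.59-fold higher and 2.18-fold lower. With these shifts the T-ALL libraries of the organs lay closer together in Rab43, at 214 and 148 CPM, than the normal ones, at 140.0 and 365 CPM. Rab27a went the reverse way, lower in T-ALL bone marrow and higher in T-ALL spleen.

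Between the T-ALL organs, 7 of 37 measured Rab genes (18.9%) were lower in spleen and 0 higher. Over all 9852 genes of this pair, 11.0% were lower and 5.44% higher. The median log2 fold was -0.33, against 0.01 over all genes. All 6 measured granule Rabs were among the 7, with Rab44 69.8-fold lower (51.8 to 96.2), Rab3d 12.7-fold (10.4 to 15.7), Rab38 5.62-fold (4.08 to 7.89), Rab32 2.55-fold (2.24 to 2.92), Rab37 2.49-fold (2.10 to 2.98) and Rab27a 2.15-fold (1.95 to 2.37). The seventh was Rab31, a Rab of the route from the Golgi to endosomes, at 125, 144, 65.1 and 43.4 CPM. It was 3.31-fold lower (2.96 to 3.71) in T-ALL spleen than in T-ALL bone marrow, and 1.92-fold lower (1.74 to 2.12) between the normal organs. Of the granule Rabs, Rab44 and Rab38 reached 10 CPM only in the bone marrow library of this pair. Rab27b stayed just under it, at 9.55 CPM in T-ALL bone marrow, and so could not be called. It was 17.6-fold lower (7.28 to 55.7) in T-ALL spleen, with 5 reads against 89. All 10 neutrophil precursor markers and all 7 mature neutrophil markers were lower in T-ALL spleen as well. So were all 7 basophil and mast cell markers and all 3 measured platelet and megakaryocyte markers, while all 12 T cell markers were higher. The part of these markers in the Rab levels was not tested.

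The other measured Rabs stayed under the rule between the T-ALL organs, Rab5b among them at 1.88-fold lower (1.71 to 2.06) in spleen. The largest difference of the late endosome role was that of Rab7l1 (1.7-fold lower, 1.38 to 2.11), that of the Golgi role Rab6a (1.55-fold, 1.41 to 1.7) and that of the recycling role Rab11a (1.49-fold, 1.33 to 1.68). Rab28 was 1.8-fold lower (1.5 to 2.17), as it was between the normal organs at 1.79-fold (1.52 to 2.1), where Rab8a was 1.44-fold higher (1.34 to 1.55).

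None of the 6 Rabs that were higher in normal spleen was called in this pair. Rab43 was 1.45-fold lower (1.35 to 1.55) in T-ALL spleen than in T-ALL bone marrow, Rab19 was 1.30-fold higher (0.994 to 1.71) and Rab20 1.60-fold higher (1.22 to 2.11). Rab30, Rab39 and Rab6b stayed under 10 CPM in both T-ALL libraries and so could not be called. Rab30 was still 9.22-fold higher (4.23 to 23.9) in T-ALL spleen, with 64 reads against 7, and passed once the minimum was dropped. Rab39 was 1.54-fold higher (1.02 to 2.35). Whether the organ difference of a Rab itself differed between normal and T-ALL mice was not tested.

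**Figure D4:**
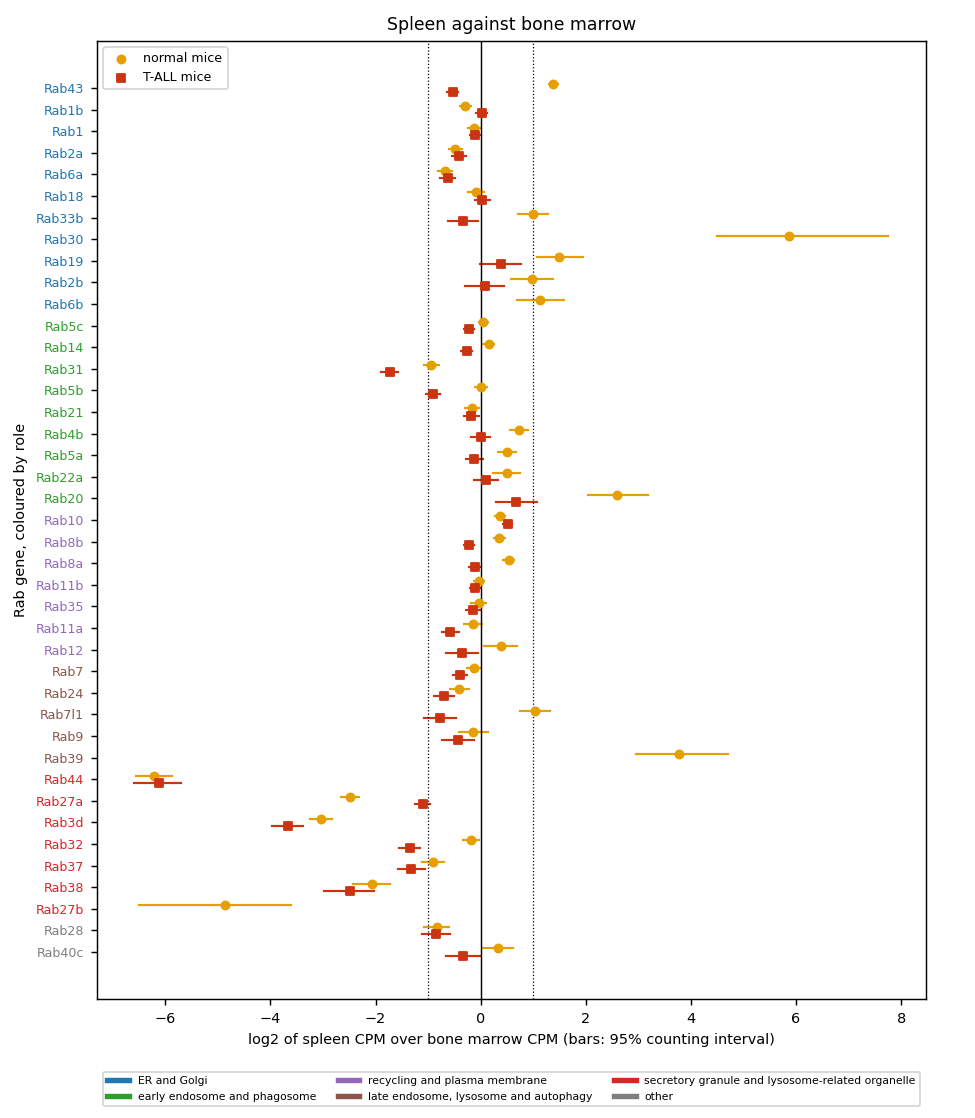
Log2 ratio of spleen to bone marrow CPM for each measured Rab gene, in normal mice (circles) and T-ALL mice (squares), with 95% counting intervals as bars. Dotted lines mark 2-fold. Rab44 lies furthest left in both, at 74.2-fold and 69.8-fold lower, and Rab30 and Rab39 lie beyond 2-fold to the right in normal mice.

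Close relatives within the family differed in level and in pattern. In the Rab3 family, known for regulated secretion, Rab3d held 93.9% of the summed RPKM in normal bone marrow and 40.96% in T-ALL spleen. Rab3a, at 3.08, 4.14, 4.86 and 4.10 RPKM, held most of the rest. Rab31 and Rab22a, a pair of endosomal relatives, also changed places: Rab31 was at 36.1, 41.01, 18.6 and 12.6 RPKM and Rab22a at 12.2, 17.2, 17.03 and 18.6 RPKM. Rab32 and Rab38 were at 39.0 and 25.7 RPKM in normal bone marrow but at 16.5 and 3.12 RPKM in T-ALL spleen.

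Most other families kept the same leading member in all 4 libraries. Rab27a held 96.8% to 99.7% of the summed RPKM of Rab27a and Rab27b, and Rab4b 89.2% to 96.9% of that of Rab4a and Rab4b. Rab6a held 88.8% to 96.9% beside Rab6b, and Rab2a 87.8% to 95.2% beside Rab2b. In the Rab5 family, Rab5c held 66.5% to 71.2%, Rab5b 13.3% to 20.9% and Rab5a 10.5% to 15.6%. Rab1b held 62.4% to 65.5% beside Rab1, and Rab8a 63.0% to 70.1% beside Rab8b. Rab11a and Rab11b were near equal, with Rab11b at 48.7% to 56.7%, and Rab11a led in T-ALL bone marrow. Rab33b held 80.9% to 97.6% beside Rab33a, Rab39 93.8% to 100% beside Rab39b, and Rab40c 93.6% to 99.4% beside Rab40b. In GENCODE, 8 members share exon bases with another protein-coding gene. Rab43, Rab4b and Rab26 do so on the same strand, and Rab24, Rab6a, Rab5a, Rab2b and Rab3a on the opposite strand, so reads at these 8 may be split with or added from their neighbours.

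Of the 57 members, 16 stayed below 10 CPM in every library. The highest were Rab3a, at up to 7.27 CPM, Rab4a, a Rab of fast recycling, at up to 6.70 CPM, and Rab23, a Rab of cilia, at up to 6.55 CPM. Rab36 and Rab34, grouped here with the Golgi role and known for positioning late endosomes and lysosomes, reached 4.29 and 3.58 CPM. Rab13 of cell junctions reached 3.43 CPM and the epithelial Rab17 2.43 CPM, the latter with 24, 15, 0 and 2 reads. Rab33a, Rab39b, Rab40b and Rab15 reached at most 1.30 CPM, and Rab42, Rab26, Rab25, Rab3b and Rab3c at most 0.783 CPM. No read was found for Rab39b and Rab3c in normal bone marrow, Rab26 in T-ALL bone marrow, Rab15, Rab17 and Rab3c in normal spleen, and Rab25 in T-ALL spleen. A count of 0 allows up to 3 reads, or 0.304 to 0.336 CPM.

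The regulators of the Rabs were read from 4 lists of 126 genes, of which 125 had a read in some library. In bone marrow, 6 of 104 measured regulators (5.77%) were called higher in the T-ALL library and 0 lower, where 8.01% of all genes were higher and 1.03% lower, and their median log2 fold was 0.08. The 6 included 4 of 31 exchange factors, 1 of 28 GTPase-activating proteins and 1 of 37 effectors. Myo5b, a motor that binds Rab11, went from 2 to 203 reads, 107-fold higher (29.3 to 893). Rab3il1, an exchange factor of Rab8, was 5.26-fold higher (4.05 to 6.91) and the GTPase-activating Tbc1d9 4.95-fold higher (4.12 to 5.99).

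In spleen, 14 of 102 regulators (13.7%) were lower in the T-ALL library and 4 (3.92%) higher, where 11.0% of all genes were lower and 10.3% higher. Their median log2 fold was -0.38, against -0.08 over all genes. Tbc1d9 went from 360.5 to 87.0 CPM, 4.14-fold lower (3.83 to 4.48), and Tbc1d4, which acts on Rab10 in the insulin response, was 4.15-fold lower (3.78 to 4.56). Tbc1d8 was 3.76-fold lower (3.40 to 4.16). Among the higher ones, Rilpl2 was 3.09-fold higher (2.78 to 3.43), and Rabggtb, the catalytic subunit of the enzyme that attaches the lipid tails of Rabs, 2.18-fold higher (1.90 to 2.50).

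Between the organs, 20 of 104 regulators (19.2%) were higher and 6 (5.77%) lower in normal spleen than in normal bone marrow, where 16.1% of all genes were higher and 14.0% lower. In T-ALL spleen 8 of 105 (7.62%) were higher and 15 (14.3%) lower than in T-ALL bone marrow, where 5.44% of all genes were higher and 11.0% lower. Tbc1d9 was 25.6-fold (21.6 to 30.5), Rab3il1 13.9-fold (10.8 to 18.0) and Sbf2 8.56-fold (6.43 to 11.6) higher in normal spleen. Tbc1d2, a GTPase-activating protein of Rab7, was 22.4-fold lower (14.2 to 37.5) in normal spleen and 26.9-fold lower (14.8 to 54.4) in T-ALL spleen. Sytl1, an effector of Rab27, was lower in spleen, 4.39-fold (3.23 to 6.08) in normal and 6.10-fold (3.78 to 10.3) in T-ALL mice. Osbpl1a was 4.19-fold lower (3.25 to 5.47) in normal spleen, and Rab11fip5, an effector of Rab11, 6.88-fold lower (5.13 to 9.39) in T-ALL spleen. In T-ALL spleen Sbf2 and Sytl3 rose above T-ALL bone marrow by 3.57-fold (3.05 to 4.19) and 3.23-fold (2.33 to 4.55). Sytl3, on the list of effectors like Sytl1, thus went the other way from Sytl1.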

How the data were processed

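RNA of sorted macrophages was sequenced in 4 libraries. Per the file headers, the authors deposited for each gene its length, the RPKM and a count of reads mapped uniquely. The deposited RPKM was recomputed from count, length and total to within 1.89e-06% for the members. The aligner, counting rule, strand setting, build and annotation were looked for: not given in the sources used here. Unique counts leave out reads with several matches, so near-identical copies are uncertain.

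Files were joined by Gene ID, and a gene without a line was set to 0. Library totals were scaled with the TMM method of edgeR 4.0.16 under R 4.3.3, whose factors ran from 0.991 to 1.01, and CPM computed. Genes with under 10 CPM in both libraries of a pair were not measured in it. No count model was fitted, since each group has 1 library. Tables and intervals were made in Python 3.11.15 with scipy 1.17.1, pandas 2.3.3 and numpy 2.4.6, figures with matplotlib 3.10.9. The size rule was tested on simulated data.

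Members, roles, marker and regulator lists were chosen with earlier results of these data known, and the motifs after the values had been seen. Named genes are members past the size rule, the 5 highest per length in a library, the largest fold of a role, relatives, and up to 3 regulators each way in a comparison. A regulator that this rule names is not reported here. Named outside this rule are Mpo, Prss34, Xist and members near the threshold or of narrow spread. Protein sequences were not used here, so identity between relatives is not given. Alternatives were other scalings (DESeq2 1.42.0 size factors among them), pseudocounts, minimums, RPKM and a 1.5-fold threshold. Intervals and floors treat reads as independent molecules and cover counting error only.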

Additional observations from a re-analysis of the deposited data

Results flagged for a closer look

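For 14 Rab genes the T-ALL differences of bone marrow and spleen had 95% counting intervals on opposite sides of 0. The same share over all genes is not given here, so the count is not read as particular to the Rabs. The difference between the organs was not tested, since each group has 1 library, and the intervals cover counting error only. Some of them ended near 0. The spleen intervals of Rab20 and Rab19 reached up to log2 ratios of -0.003 and -0.024. The bone marrow intervals of Rab8a and Rab5c began at 0.018 and 0.021. The count can thus change with the scaling, and it is not given here under other scalings. The values are the log2 fold in spleen minus that in bone marrow. Higher in T-ALL bone marrow and lower in T-ALL spleen were Rab39 (-2.51), Rab43 (-1.91), Rab7l1 (-1.72), Rab20 (-1.64), Rab33b (-1.28) and Rab19 (-1.01). So were, by smaller amounts, Rab31 (-0.78), Rab4b (-0.72), Rab8a (-0.64), Rab8b (-0.57), Rab11a (-0.43), Rab14 (-0.42) and Rab5c (-0.27). Rab27a was lower in T-ALL bone marrow and higher in T-ALL spleen (1.36). Rab20 and Rab39 stayed under 10 CPM in both bone marrow libraries. Of the 14, Rab39, Rab43 and Rab7l1 passed the size rule in spleen, and 0 of them did in bone marrow.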

How the results depend on the processing

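Counts of Rab genes stayed within 1.5 times under total-count scaling, median-of-ratios scaling, a pseudocount of 0.1 and TMM scaling without genes of other cell types, and each median log2 fold of the Rabs kept its sign under every setting run. A pseudocount of 5 left 2 lower genes for T-ALL against normal spleen. With no minimum, 4 genes were higher in T-ALL bone marrow, and T-ALL spleen against T-ALL bone marrow gave 1 higher and 12 lower. A minimum of 50 CPM left 2 lower in T-ALL spleen, and 1 higher and 3 lower in normal spleen against normal bone marrow. By RPKM with a minimum of 5, 1 gene (Rab20) was higher in T-ALL bone marrow. At 1.5-fold, T-ALL against normal gave 3 higher and 2 lower in bone marrow and 1 higher and 11 lower in spleen. Spleen against bone marrow then gave 10 higher and 9 lower in normal and 1 higher and 12 lower in T-ALL mice. The minimum and the threshold change by construction which genes can pass, and for RPKM the cause was not tested. No log2 fold of a called Rab reversed its sign. With 1 library per group none can be left out. No paired analysis was possible because each group has 1 library.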
